A study of Homo sapiens with 12 samples.

Results

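The NRF2 pathway was followed here as 33 named genes, taken as a fixed list of symbols with roles in the pathway, among the 34886 gene symbols measured. The list was chosen with earlier results of these data known. The cells were NCI-H446 (labelled H446), a human cell line that the labels give as small-cell lung cancer. They were treated for 8 h with CAPE (caffeic acid phenethyl ester) at 40 µM, or with the matching volume of DMSO (dimethyl sulfoxide), and carry no genetic change made for the study in the labels. CAPE is a natural compound of propolis that carries a catechol ring and an unsaturated ester. Each group holds 3 mRNA libraries. Nothing in the labels says that the replicates were cultured apart, and p-values therefore cover only the spread among libraries, which may be technical. A second set of 6 microRNA libraries was not used here.

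NRF2 (encoded by NFE2L2) is a transcription factor that KEAP1 holds in the cytoplasm and hands to the proteasome. Electrophiles and oxidants modify cysteines of KEAP1, NRF2 escapes, pairs with a small MAF protein and binds antioxidant response elements, the same sites that BACH1 occupies as a repressor. Its targets make glutathione, run the thioredoxin cycle, supply NADPH to both, and reduce or conjugate reactive carbonyls and quinones. In non-small-cell lung cancers the pathway is known for activating mutations of its regulators.

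The core of the antioxidant response element, TGACNNNGC, was searched on both strands in RefSeq promoter windows (GRCh38.p14, 250 bases before to 50 after a transcript start), which 26 of the 33 members had. It was present for 7 of the 26 members (26.9%) and for 16.1% of the 27305 genes with a window. The stretches upstream of the start are printed for 5 of these 7, with the match in capitals, so that members of which the RNA differed in response can be read beside each other. A match on the reverse strand starts with GC and ends with GTCA. GLRX, the member with the largest rise, had no match in its window, and its last 100 bases before the start are given for comparison.
GCLM, chr1:93909431-93909500, minus strand: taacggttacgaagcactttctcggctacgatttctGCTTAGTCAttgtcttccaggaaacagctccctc
TXNRD1, first start, chr12:104215650-104215719, plus strand: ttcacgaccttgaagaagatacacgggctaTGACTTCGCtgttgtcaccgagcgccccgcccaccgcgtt
TXNRD1, inner start, chr12:104286900-104286969, plus strand: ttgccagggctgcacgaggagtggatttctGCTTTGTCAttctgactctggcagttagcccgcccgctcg
ME1, chr6:83431149-83431218, minus strand: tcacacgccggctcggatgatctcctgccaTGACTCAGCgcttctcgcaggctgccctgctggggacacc
PGD, chr1:10398833-10398902, plus strand: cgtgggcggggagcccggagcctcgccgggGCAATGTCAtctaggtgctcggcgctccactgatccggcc
CBR1, chr21:36069835-36069904, plus strand: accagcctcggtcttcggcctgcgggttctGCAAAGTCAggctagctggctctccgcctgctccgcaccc
GLRX, chr5:95822727-95822826, minus strand: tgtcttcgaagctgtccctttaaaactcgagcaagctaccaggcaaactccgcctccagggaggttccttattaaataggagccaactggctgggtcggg
The printed match of ME1 also holds the AP-1 site TGANTCA, which was present in windows of 3 of the 26 members (BACH1, OSGIN1 and ME1, 11.5%) and of 9.37% of all genes. TXNRD1 had a further core match at position -8 from its first start and ME1 at position 11, outside the stretches printed. KEAP1 and EPHX1, which are not printed, were the remaining members with matches. A match is a description of these letters only.

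Of the libraries, DMSO 3 stood apart. Each gene called without it is therefore given with and without it, and the plot of fold changes shows both values for the 31 members tested in both fits. The 6 libraries held 17569997 to 20917508 estimated counts. DMSO 3 had a TMM scaling factor of 0.699 where the others had 1.07 to 1.09, and its values for the members lay a median of 1.05 above those of DMSO 1 and DMSO 2 on the log2 scale, against a median of 0.00 for all 13595 genes tested. It was at least 2-fold higher for 17 of 31 tested members and at least 2-fold lower for 3, namely GCLC, BACH1 and GSR. Across the 31 members the deviation fell with relative transcript length, read from the ratio of count to TPM (Pearson r = -0.54, Spearman rho = -0.52, over members of shared libraries, a description). The same held over 12248 genes (r = -0.50). Short transcripts such as GPX4 (2.18) and TXN (1.20) were high in DMSO 3, and long ones such as BACH1 (-1.58) and GCLC (-1.17) were low, while GSR was short and low (-2.46).

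**Figure D1:**
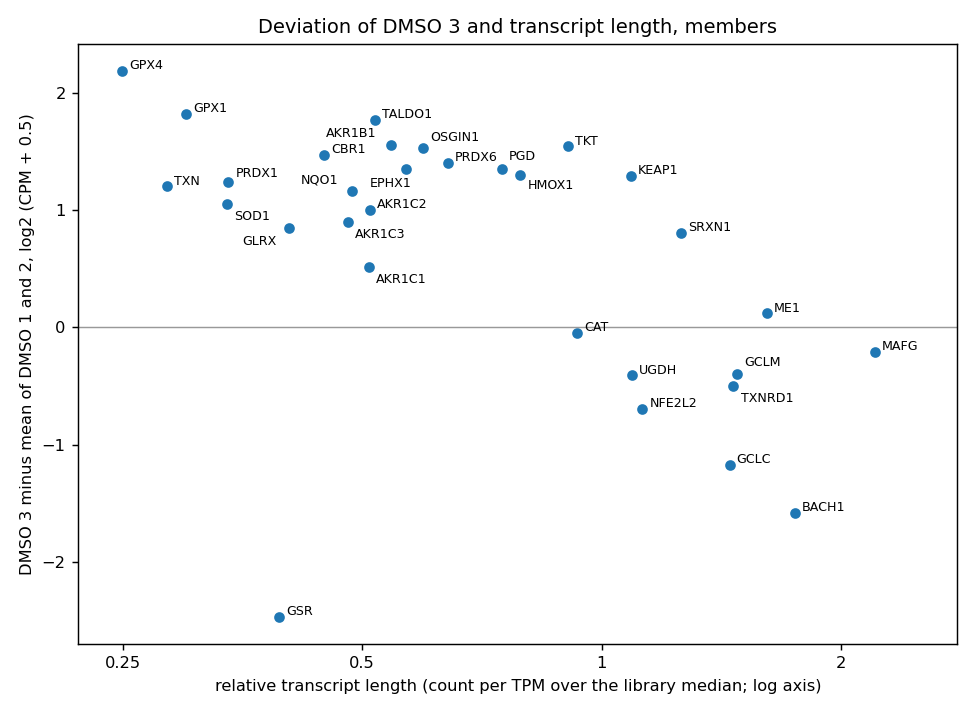
Each point is 1 of 31 members. The horizontal axis is the relative transcript length (log axis, 1 is the library median) and the vertical axis the log2 difference of DMSO 3 from the mean of DMSO 1 and 2, which ran from 2.18 for GPX4 to -2.46 for GSR.

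The identity of the cells was checked with markers in TPM, a level scaled by transcript length and by the library total. Of 10 neuroendocrine and small cell lung cancer markers only ENO2 and UCHL1 reached 1 TPM in any library, and NEUROD1, INSM1 and NCAM1 were at or near 0 in all 6, so that these markers of the labelled type were absent or nearly so. The epithelial list summed to 1292 to 2552 TPM in DMSO and 1126 to 1185 in CAPE, the fibroblast list to 13.4 to 48.3 and 47.9 to 56.8, the immune list to 23.9 to 26.1 and 28.6 to 34.4, and the endothelial list to 1.58 to 4.06 and 1.10 to 3.46. KRT8 (711 to 1493 TPM over the 6 libraries) and KRT18 (403 to 1058) made up nearly all of the epithelial sum, beside EPCAM at 1.16 to 2.96 and CDH1 at 0.036 to 0.19. CD68 (23.8 to 32.3) made up most of the immune sum, beside PTPRC at 0.11 to 1.95, LYZ at 0 to 0.093 and CD3E at 0. The neuroendocrine list summed to 43.5 to 49.8 in DMSO and 154 to 162 in CAPE, and ENO2 alone made up most of the second range. The part of these genes in the results below was not tested.

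The comparison asked how the NRF2 genes differed after 8 h of CAPE. In short, GLRX, OSGIN1, HMOX1, GCLC, BACH1, UGDH, GCLM, TXNRD1 and EPHX1 rose, and NFE2L2, TKT, PRDX6, AKR1C3, SOD1, NQO1 and GPX1 fell, once DMSO 3 was left out. With all 6 libraries 1 of 31 tested members passed, GLRX, where 1.95% of 13595 genes passed in either direction (1.49% higher, 0.456% lower). No member was lower in edgeR or in DESeq2. At an unadjusted edgeR p under 0.05, 5 members were higher and 1 lower, where 2183 of all 13595 genes reached that p in either direction. Without DMSO 3, 9 of 32 tested members were higher (28.1%) and 7 lower (21.9%). Of all 13919 genes 41.2% were called in that fit, 20.4% higher and 20.8% lower, so that the share among members stands near this background. The median log2 fold change of the members was -0.36 with 6 libraries and -0.00133 without DMSO 3, beside -0.01 and 0.00346 for all genes tested. The members called thus went in both directions. Of the 16 members called without DMSO 3, 3 rose at least 2-fold (GLRX, OSGIN1 and HMOX1) and 1 fell at least 2-fold (GPX1). Among all 13919 genes 610 passed as higher and 185 as lower by that much in this fit. Under all 13 alternative analyses of those 5 libraries 9 of the 16 kept their call (GLRX, OSGIN1, HMOX1, GCLC, BACH1, TXNRD1, NFE2L2, TKT and PRDX6). Values in CPM are counts scaled to the library total times its TMM factor. They are relative to the whole library. A change in RNA per cell thus cannot be told apart from a change in the share of cells.

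**Figure D2:**
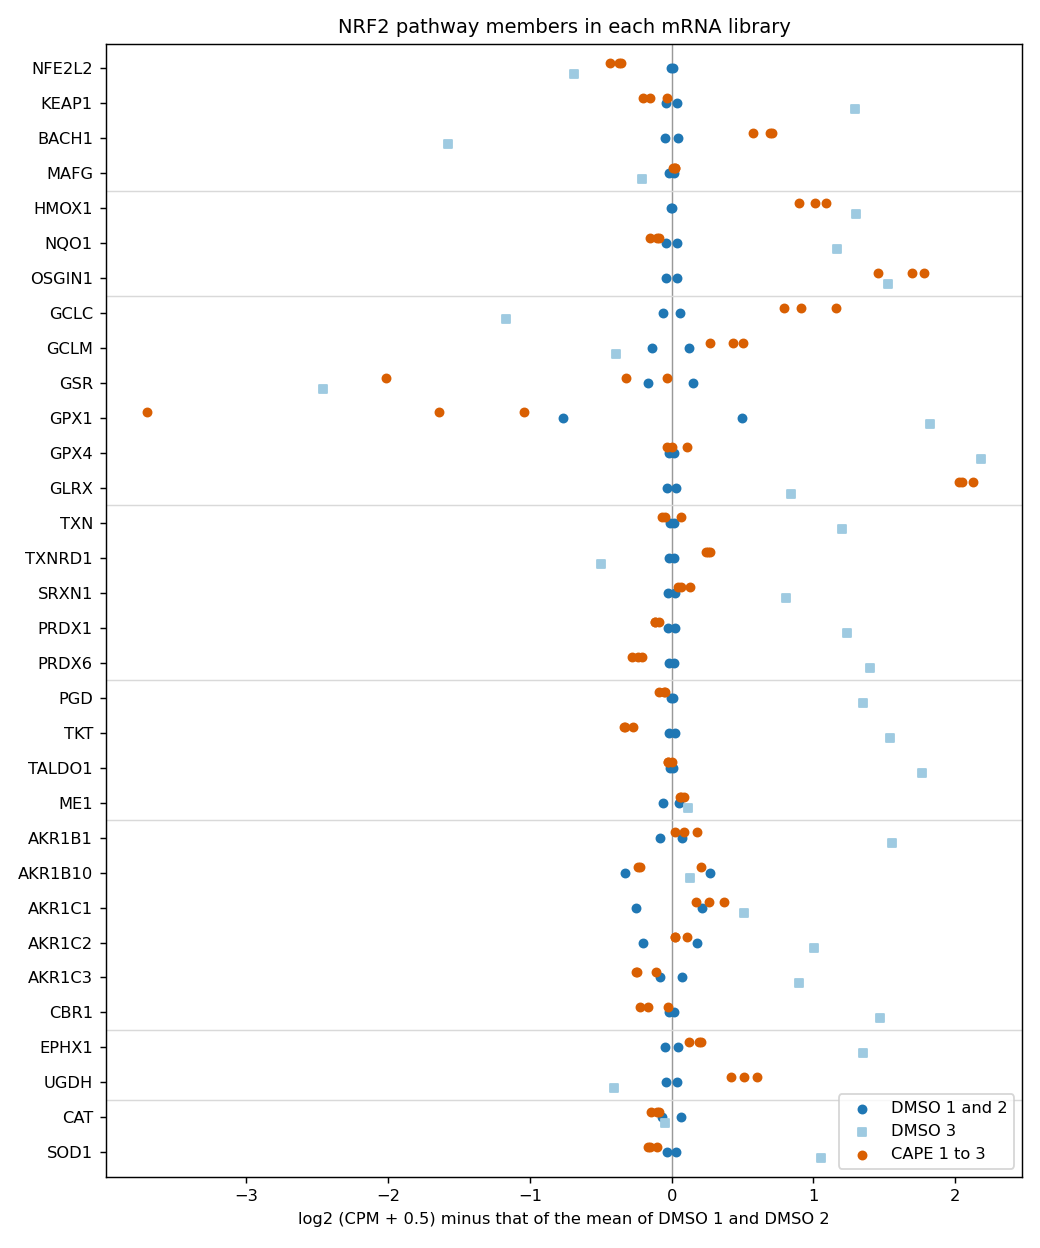
Values of 32 members (GSS was listed at 0 throughout) in each library, as log2 (CPM + 0.5) minus that of the mean of DMSO 1 and 2; lines part the groups by function. DMSO 3 lies at least 1 to the right for 17 of the 31 tested members and at least 1 to the left for BACH1, GCLC and GSR, and the CAPE points of GLRX lie at the far right.

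Among the regulators, the activator NFE2L2 and BACH1, the repressor at the same sites, moved in opposite directions without DMSO 3. NFE2L2 (chromosome 2, 177230303 to 177264727, GRCh38) measured 148, 146 and 90.9 CPM in DMSO 1 to 3 and 114, 109 and 114 CPM in CAPE 1 to 3. All CAPE libraries lay below DMSO 1 and 2 and above DMSO 3. Without DMSO 3 its log2 fold change was -0.39 (SE 0.05, edgeR adjusted p = 8.85e-06), and with it -0.19 (SE 0.22, adjusted p = 0.601); on the TPM scale the 6-library value had the opposite sign (0.21). BACH1 (chromosome 21, 29298922 to 29361894), the repressor that heme removes from these sites, held 39.1, 41.5 and 13.1 CPM in DMSO and 66.0, 60.1 and 65.3 CPM in CAPE. The groups did not overlap, and the log2 fold change was 0.66 (SE 0.07, edgeR adjusted p = 1.74e-06) without DMSO 3 and 1.03 (SE 0.42, adjusted p = 0.309) with it. On the TPM scale the ratio of BACH1 to NFE2L2 within a library was 0.165, 0.188 and 0.145 in DMSO and 0.337, 0.396 and 0.328 in CAPE. KEAP1, the cysteine-rich inhibitor, did not pass in either fit (61.9, 55.1 and 56.9 CPM in CAPE, 65.0 and 61.8 in DMSO 1 and 2, 156 in DMSO 3, log2 fold change -0.13 without DMSO 3, adjusted p = 0.108). MAFG, the small MAF partner, held 73.0 to 85.3 CPM in the DMSO libraries and 84.9 to 85.9 in those with CAPE, and changed by 0.02 on the log2 scale (SE 0.05) without DMSO 3.

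**Figure D3:**
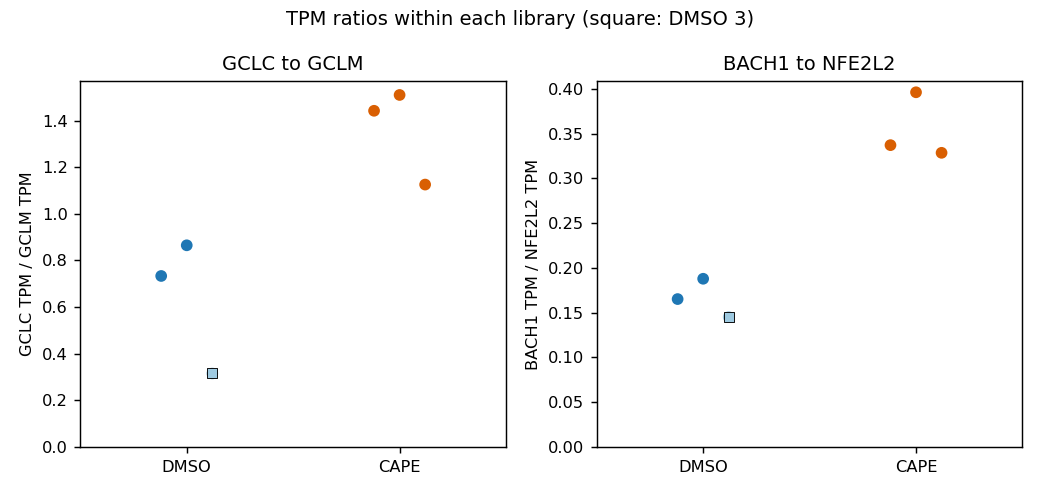
Ratio of TPM values within each library, GCLC to GCLM on the left and BACH1 to NFE2L2 on the right; the square is DMSO 3. The CAPE libraries lie above all DMSO libraries in both panels, at 1.13 to 1.51 against 0.315 to 0.865 and at 0.328 to 0.396 against 0.145 to 0.188.

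Without DMSO 3 the NRF2 targets HMOX1 and OSGIN1 rose, while NQO1, a target as well, did not. HMOX1 (chromosome 22, 35381096 to 35394207), which opens the heme ring and is the classic gene under BACH1, measured 8.27, 8.25 and 21.1 CPM in DMSO and 15.8, 18.2 and 17.2 CPM in CAPE. DMSO 3 alone lay above the CAPE libraries. Its log2 fold change was 1.04 (SE 0.11, edgeR adjusted p = 2.94e-06) without DMSO 3 and 0.45 (SE 0.40, adjusted p = 0.511) with it. OSGIN1 (chromosome 16, 83953240 to 83966332), a growth inhibitor induced by oxidative stress, held 5.90, 6.27 and 18.5 CPM in DMSO against 22.1, 20.8 and 17.5 CPM in CAPE. DMSO 3 reached into the CAPE range, and the log2 fold change was 1.72 (SE 0.13, edgeR adjusted p = 7.41e-08) without it and 0.99 (SE 0.47, adjusted p = 0.344) with it. In TPM, DMSO 3 measured 8.18 for OSGIN1 beside 6.79 and 8.41 in the other DMSO libraries and 19.8 to 25.04 in CAPE. For HMOX1 it measured 9.62 beside 7.71 and 7.76 and 15.0 to 18.5, so on that scale the groups did not overlap for either gene. TPM are scaled by length but carry no TMM factor (0.699 for DMSO 3), which by itself places DMSO 3 lower beside the other libraries than in CPM. The TPM come from the same libraries, so the separation in TPM is not separate evidence of a rise. What part the scaling plays in it was not tested. NQO1, a quinone reductase that the aryl hydrocarbon receptor also induces, was among the most abundant members and held 309, 325 and 711 CPM in DMSO and 295, 285 and 299 CPM in CAPE. All CAPE values lay below all DMSO values, by little next to DMSO 1 and 2. The log2 fold change was -0.12 (SE 0.04, edgeR adjusted p = 0.0357) without DMSO 3, a call that held under 5 of 13 alternatives, and -0.61 (SE 0.35, adjusted p = 0.361) with it.

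**Figure D4:**
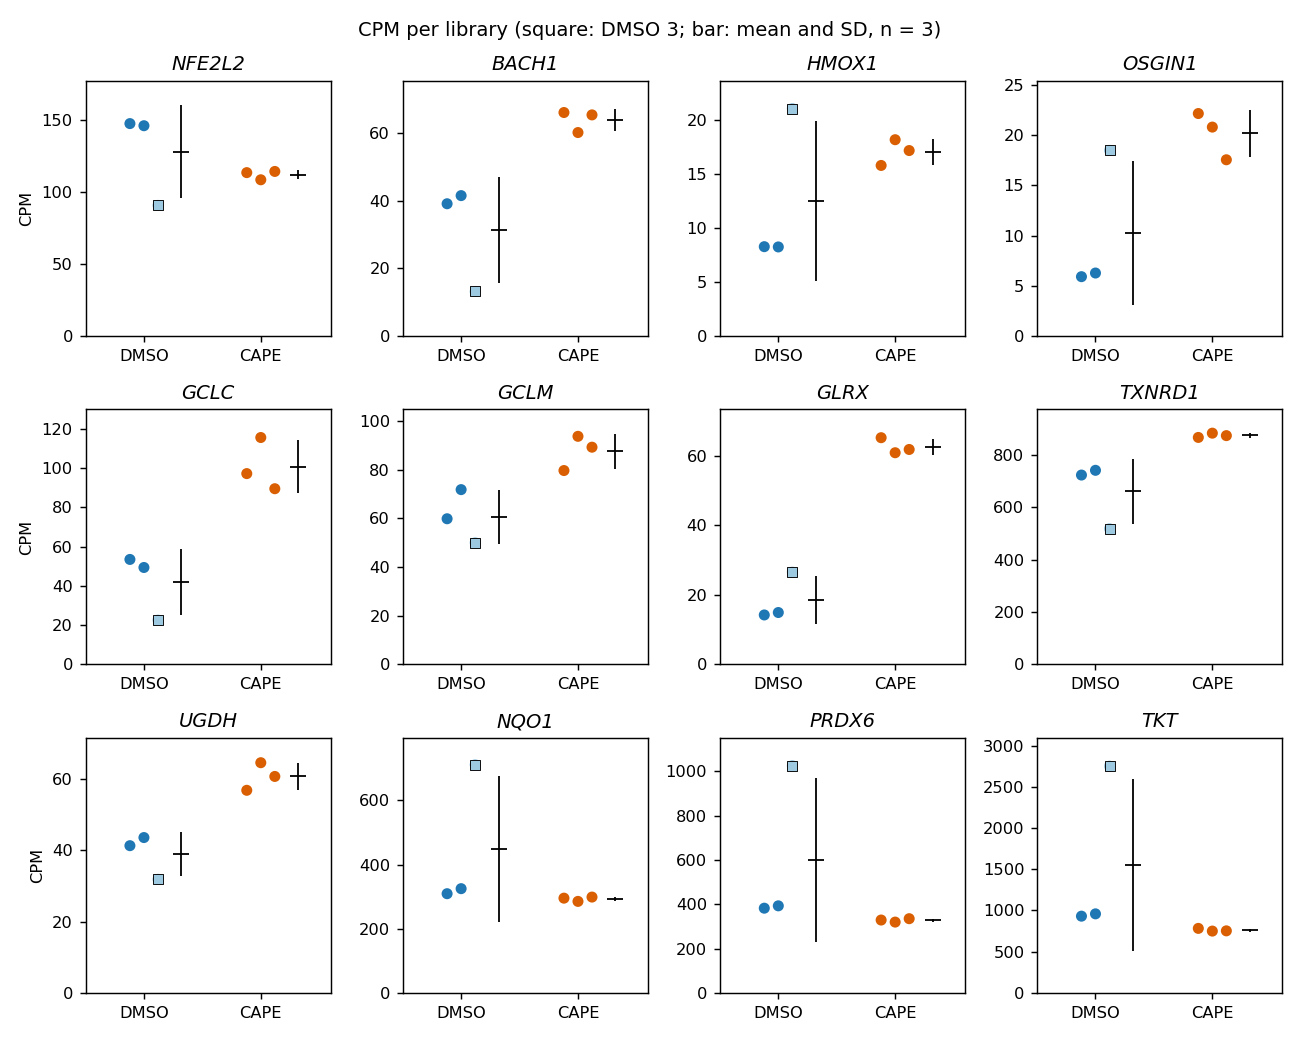
CPM per library of 12 members, with DMSO in blue, CAPE in orange and DMSO 3 as a square; the bar gives the mean and SD of the 3 libraries of a group. GLRX, GCLC, GCLM, BACH1, TXNRD1 and UGDH show CAPE above all 3 DMSO libraries, while DMSO 3 lies above the CAPE values for HMOX1 (21.1 CPM) and within them for OSGIN1 (18.5 CPM).

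The glutathione genes held the largest rise. Without DMSO 3, 3 of 6 tested members were higher and 1 lower, and the median log2 fold change stood at 0.21. With all 6 libraries GLRX alone passed in edgeR, and the median stood at 0.20 (0.44 on log2(TPM + 0.1)). GLRX (chromosome 5, 95813849 to 95822726), glutaredoxin, which frees protein cysteines from glutathione, measured 14.2, 14.9 and 26.5 CPM in DMSO (18.6 ± 6.92, SD, n = 3) and 65.2, 60.9 and 61.8 CPM in CAPE (62.6 ± 2.28). Each CAPE library was above each DMSO library. The log2 fold change was 1.76 (SE 0.28, edgeR adjusted p = 0.0407) with 6 libraries and 2.10 (SE 0.07, adjusted p = 2.52e-11) without DMSO 3, a 4.28-fold rise. The 6-library call was lost with a block of replicate numbers and when any library other than DMSO 3 was left out (adjusted p up to 0.231), while the 5-library call held under all 13 alternatives. In the order of TPM levels among the 33 members GLRX stood at place 21 to 25 in the DMSO libraries and at place 15 in each CAPE library.

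GCLC and GCLM, the catalytic and modifier subunits of the ligase that limits glutathione synthesis, both rose without DMSO 3. GCLC (chromosome 6, 53497341 to 53545101) measured 53.4, 49.3 and 22.6 CPM in DMSO and 97.1, 115 and 89.4 CPM in CAPE. GCLM (chromosome 1, 93885199 to 93909430) measured 59.9, 71.8 and 50.02 CPM in DMSO and 79.7, 93.7 and 89.3 CPM in CAPE. Neither pair of groups overlapped. Without DMSO 3 the log2 fold changes were 0.97 (SE 0.09, edgeR adjusted p = 7.58e-07) for GCLC and 0.41 (SE 0.08, adjusted p = 9.09e-04) for GCLM, and with it 1.27 (SE 0.34, adjusted p = 0.161) and 0.53 (SE 0.18, adjusted p = 0.246). In DESeq2 with 6 libraries GCLC passed (DESeq2 adjusted p = 0.0224) and GCLM did not (DESeq2 adjusted p = 0.192). The call of GCLM was lost on the TPM scale without DMSO 3 (limma adjusted p = 0.0504). The ratio of GCLC to GCLM in TPM was 0.733, 0.865 and 0.315 in DMSO and 1.44, 1.51 and 1.13 in CAPE. In DMSO the modifier thus had the higher TPM, and in CAPE the catalytic subunit had. This difference between the subunits was not tested.

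The enzymes that spend or regenerate glutathione gave little. GPX4, the peroxidase of membrane lipids that guards against ferroptosis, held 73.5 and 75.1 CPM in DMSO 1 and 2 and 80.0, 72.6 and 74.4 CPM in CAPE, a log2 fold change of 0.02 (SE 0.06), while DMSO 3 held 339 CPM. GPX1, the cytosolic glutathione peroxidase, was listed with 63, 166 and 328 counts in DMSO and 30, 0 and 52 in CAPE, lower in every CAPE library. It passed as lower without DMSO 3 (log2 fold change -2.07, SE 0.57, edgeR adjusted p = 0.00951), but not with it (-3.00, SE 1.17, adjusted p = 0.296), nor without DMSO 2 as well, in DESeq2 or on the TPM scale. GSR, glutathione reductase, was listed with 96, 76 and 6 counts in DMSO and 14, 66 and 86 in CAPE, so that 1 library of each group was far below the others, and it did not pass (adjusted p = 0.211 without DMSO 3). Both GPX1 and GSR serve most cell types, and whether their low counts are failed estimates was not tested. GSS, which completes glutathione synthesis in all cells, is listed at 0 in all 6 libraries in both tables, and no value is drawn from it.

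In the thioredoxin group the reductase rose and a peroxiredoxin fell. TXNRD1 (chromosome 12, 104215779 to 104350307), the selenoenzyme that reduces thioredoxin with NADPH, measured 722, 740 and 518 CPM in DMSO and 866, 882 and 873 CPM in CAPE. The groups did not overlap, and the log2 fold change was 0.25 (SE 0.04, edgeR adjusted p = 1.84e-04) without DMSO 3, a 1.19-fold rise, and 0.40 (SE 0.19, adjusted p = 0.342) with it. PRDX6, a peroxiredoxin that uses glutathione in place of thioredoxin, held 382, 393 and 1026 CPM in DMSO and 329, 320 and 335 CPM in CAPE. It was lower in every CAPE library and passed without DMSO 3 (log2 fold change -0.25, SE 0.04, edgeR adjusted p = 1.66e-04), but not with DMSO 3 included (-0.87, SE 0.42, adjusted p = 0.344).

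The other thioredoxin members did not pass. TXN, thioredoxin itself, held 297 and 303 CPM in DMSO 1 and 2 and 286 to 314 in CAPE (log2 fold change -0.02, SE 0.05, without DMSO 3), with 690 CPM in DMSO 3. SRXN1, sulfiredoxin, which repairs overoxidised peroxiredoxins, held 132 and 128 CPM in DMSO 1 and 2 and 135 to 143 in CAPE (0.08, SE 0.05, adjusted p = 0.207). PRDX1 was the most abundant member in every library, at 2777, 2928 and 3132 TPM in DMSO and 2646, 2631 and 2646 TPM in CAPE. Its CPM values were lower in every CAPE than in every DMSO library, and it missed the threshold without DMSO 3 (-0.11, SE 0.05, edgeR adjusted p = 0.0674). The group's median log2 fold change was -0.02 without DMSO 3 and -0.53 with it.

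None of the 4 NADPH members passed as higher in either fit. TKT (chromosome 3, 53224712 to 53256022), transketolase of the pentose phosphate pathway, measured 931, 959 and 2751 CPM in DMSO and 783, 750 and 753 CPM in CAPE. Every CAPE library was below every DMSO library, and it passed as lower without DMSO 3 (log2 fold change -0.31, SE 0.04, edgeR adjusted p = 3.35e-05) but not with it (-1.02, SE 0.46, adjusted p = 0.330). TALDO1, transaldolase, held 124 and 126 CPM in DMSO 1 and 2 and 123 to 125 in CAPE. PGD, the dehydrogenase of 6-phosphogluconate, held 260 and 257 CPM in DMSO 1 and 2 and 243 to 250 in CAPE (-0.07, SE 0.04, adjusted p = 0.191). ME1, cytosolic malic enzyme, in which DMSO 3 lay close to the other libraries, held 72.4, 78.3 and 81.9 CPM in DMSO and 78.5 to 80.2 in CAPE. The median of the NADPH group was -0.04 without DMSO 3 and -0.77 with it.

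None of the aldo-keto reductase members, which reduce carbonyls and steroids, passed as higher with 6 libraries or without DMSO 3. When DMSO 2 was left out as well, the group's median log2 fold change was 0.21. That value rests on DMSO 1 alone, which was lower than DMSO 2 for AKR1B1, AKR1C1 and AKR1C2, so no call is drawn from it. AKR1C1, AKR1C2 and AKR1C3 lie next to each other on chromosome 10 and are close in sequence, so that reads may be shared among them and single values are uncertain. AKR1C3 held 127, 142 and 252 CPM in DMSO and 113, 113 and 125 CPM in CAPE, and passed as lower without DMSO 3 (log2 fold change -0.20, SE 0.06, edgeR adjusted p = 0.0125), a call that held under 8 of 13 alternatives, but not with it (-0.57, SE 0.28, adjusted p = 0.348). AKR1C2, the most abundant of the 3, held 226 and 294 CPM in DMSO 1 and 2 and 264 to 280 in CAPE, and AKR1C1 15.4 and 21.6 CPM and 20.9 to 24.1. The summed CPM of the 3 genes were 369, 457 and 799 in DMSO and 400, 398 and 429 in CAPE, which lie between DMSO 1 and 2. AKR1B1, aldose reductase, held 195 and 217 CPM in DMSO 1 and 2 and 210 to 234 in CAPE (0.10, SE 0.06, adjusted p = 0.191). AKR1B10, often high in cells with active NRF2, had 4 to 11 counts per library and was tested only without DMSO 3 (-0.17, SE 0.62). CBR1, a carbonyl reductase, held 103 and 106 CPM in DMSO 1 and 2 and 89.2 to 103 in CAPE (-0.14, SE 0.06, adjusted p = 0.0699). The median of these 6 was -0.05 without DMSO 3, and of the 5 tested with 6 libraries -0.57.

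UGDH and EPHX1 serve conjugation and hydrolysis. UGDH (chromosome 4, 39498755 to 39527439), which makes UDP-glucuronic acid, measured 41.3, 43.6 and 31.9 CPM in DMSO and 56.9, 64.6 and 60.7 CPM in CAPE. The groups did not overlap, and the log2 fold change was 0.51 (SE 0.07, edgeR adjusted p = 3.00e-05) without DMSO 3 and 0.64 (SE 0.17, adjusted p = 0.1603) with it. The 5-library call of UGDH was lost on unfiltered log2(TPM + 1) (limma adjusted p = 0.0789) and held under the other 12 alternatives. EPHX1, microsomal epoxide hydrolase, held 48.7 and 51.7 CPM in DMSO 1 and 2, 129 in DMSO 3 and 54.7 to 57.9 in CAPE. It passed as higher without DMSO 3 (0.17, SE 0.06, edgeR adjusted p = 0.0369), a call that held under 4 of 13 alternatives, and the 6-library value had the opposite sign (-0.43, SE 0.40, adjusted p = 0.526). SOD1 and CAT, which remove superoxide and hydrogen peroxide, were both lower in CPM in every CAPE library. In TPM this held for SOD1 but not for CAT, which measured 40.8 in DMSO 3 and 86.4 to 90.6 in CAPE. SOD1 held 227, 218 and 463 CPM in DMSO and 201, 199 and 208 CPM in CAPE and passed without DMSO 3 (-0.14, SE 0.04, edgeR adjusted p = 0.0148), but not with it (-0.58, SE 0.32, adjusted p = 0.355), nor without DMSO 1 or CAPE 2 as well, or on unfiltered TPM. CAT held 115, 127 and 117 CPM in DMSO and 110, 113 and 114 CPM in CAPE and did not pass (-0.12, SE 0.05, adjusted p = 0.0929).

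**Figure D5:**
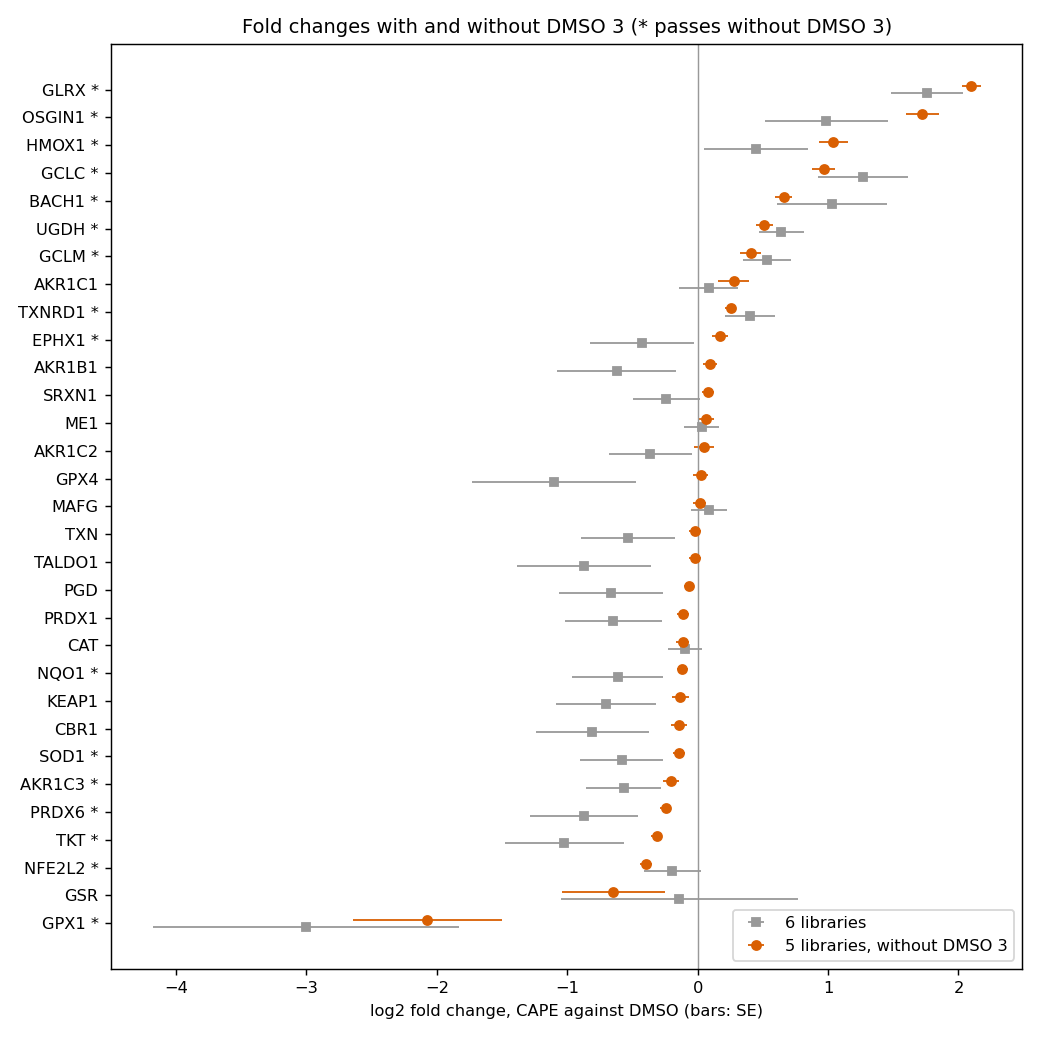
Log2 fold change of CAPE against DMSO with its SE for the 31 members tested in both fits, with 6 libraries (grey squares) and without DMSO 3 (orange circles); a star marks members that pass without DMSO 3. Without DMSO 3 the values ran from -2.07 for GPX1 to 2.10 for GLRX, and 5 of the 31 members had the opposite sign with 6 libraries.

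Set side by side without DMSO 3, the subgroups had median log2 fold changes of 0.21 (glutathione), -0.02 (thioredoxin), -0.04 (NADPH) and -0.05 (aldo-keto and carbonyl reductases), beside 0.00346 for all genes. Of their tested members 3, 1, 0 and 0 were higher and 1 was lower in each. With 6 libraries the medians were 0.20, -0.53, -0.77 and -0.57, and the same 4 subgroups deviated in DMSO 3 by a median of 0.22, 1.20, 1.44 and 1.002. No test was made between subgroups. Over 6 libraries the CPM of the groups did not overlap for 6 of 31 members with CAPE higher and for 10 with CAPE lower, where 21.4% and 20.6% of all genes did so. The summed TPM of the glutathione members was 318, 343 and 539 in DMSO and 452, 446 and 444 in CAPE, that of the thioredoxin members 4429, 4627 and 4728 against 4296, 4276 and 4357, and that of the NADPH members 1231, 1248 and 1661 against 1114, 1059 and 1076. The largest single terms were GPX4 (and, with CAPE, GLRX after it) in the first sum, PRDX1 in the second and TKT in the third.

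A further 97 genes of the pathway were listed by function, of which 86 were tested. These too were chosen with earlier results known, so that their shares beside all genes are a description. With 6 libraries 3 of them passed, all higher, where 1.49% of all genes passed as higher. At an unadjusted edgeR p under 0.05 there were 19, where 2183 of all 13595 genes tested reached that p. The 3 were CHAC1, which breaks down glutathione and is a target of ATF4, SESN2, a stress-induced brake on mTORC1, and MTHFD2, a mitochondrial enzyme of one-carbon metabolism. CHAC1 measured 4.95, 3.86 and 10.6 CPM in DMSO and 44.4, 39.0 and 40.7 CPM in CAPE (log2 fold change 2.68, SE 0.40, edgeR adjusted p = 0.0353, and 3.23 without DMSO 3). SESN2 measured 10.7, 9.45 and 18.7 CPM in DMSO and 48.1, 46.0 and 44.9 CPM in CAPE (1.84, SE 0.29, adjusted p = 0.0405, and 2.20), and MTHFD2 151, 160 and 194 CPM and 333, 328 and 353 CPM (1.005, SE 0.16, adjusted p = 0.0407, and 1.12). Like that of GLRX, these 3 calls were lost with a block of replicate numbers and when any library other than DMSO 3 was left out. That of MTHFD2 was also lost with no filter on low counts, on log2(TPM + 0.1) and on unfiltered log2(TPM + 1). Without DMSO 3, 24 of the 86 rose (27.9%) and 13 fell (15.1%), where 20.4% and 20.8% of all genes did, and the median was 0.03. By function, 5 of 9 other regulators rose and 1 fell, as did 5 and 2 of 21 other glutathione genes and 3 and 2 of 11 other thioredoxin genes. Of 12 other NADPH genes 2 rose and 4 fell, and of 12 other aldo-keto, carbonyl and aldehyde enzymes 2 rose and 2 fell. Of 16 genes of conjugation, transport and heme 6 rose and 1 fell, and of 5 other direct scavengers 1 rose and 1 fell. MAFF, a small MAF protein like MAFG, was among the 3 largest rises (11.2, 10.7 and 15.9 CPM in DMSO, 30.3, 25.7 and 30.5 in CAPE, 1.39, SE 0.10, edgeR adjusted p = 7.04e-08, and 1.19, SE 0.21, adjusted p = 0.0545 with DMSO 3). The 3 largest falls were in ALDH3A1 and ALDH3A2, which oxidise aldehydes, and in RPIA of the pentose phosphate pathway (-0.57, -0.49 and -0.48, edgeR adjusted p = 3.16e-05, 4.24e-07 and 0.00289). With DMSO 3 they were -1.33, -0.47 and -0.72 (adjusted p = 0.269, 0.170 and 0.224), and the call of RPIA was also lost without DMSO 1 and on unfiltered log2(TPM + 1). ALDH3A1, which the aryl hydrocarbon receptor induces as it does NQO1, measured 58.6, 67.9 and 196 CPM in DMSO and 46.1, 40.8 and 41.5 CPM in CAPE.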

How the data were processed

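RNA was sequenced as 150-base read pairs on an Illumina platform, per the labels' protocols. The authors deposited 1 table of estimated counts by gene symbol, here rounded to whole numbers, and 1 table of TPM values for the same symbols. The submitters' processing notes name kallisto 0.46.1, bcl2fastq and GRCh38, and how transcripts were joined into genes is not given in the sources used here. In each library 32 to 65 genes had a count of 0 but a TPM above 0. Libraries held 17569997 to 20917508 estimated counts, of which GPX1, GSR and AKR1B10 had few.

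Genes kept by filterByExpr were scaled by TMM and tested in edgeR 4.0.16 (R 4.3.3) with its quasi-likelihood test, group being the single term, once over 6 libraries and once without DMSO 3. A gene passed at a Benjamini-Hochberg p under 0.05, adjusted over every gene tested. SD are over 3 libraries, and an SE is the log2 fold change over the square root of F. CPM use the 6-library factors. Deviations of DMSO 3 are on log2(CPM + 0.5), and relative lengths needed 20 counts. Alternatives were RLE factors, no count filter, a block of replicate numbers, leaving out each library, DESeq2 1.42.0, limma 3.58.1 on log2(TPM + 1) (with and without a filter of 1 TPM in 2 libraries) or log2(TPM + 0.1), and limma voom with sample quality weights. With DMSO 3 already out, leaving out DMSO 1 or DMSO 2 kept a single DMSO library, so that the spread came from the CAPE libraries alone. The tests were checked on simulated counts. There the 6-library test recovered none of the smaller changes and only part of the largest. The share of false calls without DMSO 3 was above the threshold set, a limit that also holds for the 16 members called in that fit.

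The members and lists were chosen with earlier results of these data known. All 33 members are named. Of the 97 other genes, those passing with 6 libraries are named, and the 3 largest rises and 3 largest falls that passed without DMSO 3 at an average log2 CPM of at least 3. Coordinates and promoter windows are from RefSeq for GRCh38.p14, whose genes include all 33 members. A planned comparison of protein sequences was not made. The microRNA libraries were left out, since the members are mRNA genes. A single marker of the neuroendocrine list is not reported here.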

Additional observations from a re-analysis of the deposited data

How the results depend on the processing

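Whether the replicate numbers pair the libraries could not be read from these data. Deviations were taken from each group's mean, so that DMSO 3 sets much of those of DMSO 1 and DMSO 2. Same-numbered libraries' deviations correlated at -0.19, 0.14 and -0.01 over 6 libraries, and not every library correlated best with its own number. With a replicate block over 6 libraries 0 genes and 0 members were called by edgeR (1384 genes and, higher, 4 members at an unadjusted p under 0.05). Without DMSO 3 the block moved the members' median to 0.022, the thioredoxin median to -0.062 and AKR1B10 to 0.031. Leaving out 1 library at a time from the 6, the number of genes called ran from 0 (without CAPE 1 or CAPE 3, with 1178 and 1099 at an unadjusted p under 0.05) through 6 (without CAPE 2), 9 (DMSO 1) and 17 (DMSO 2) to 5731 (DMSO 3), beside 265 with all. Members higher ran from 0 to 9 and members lower from 0 to 7, both highest without DMSO 3. The medians ran from -0.032 to 0.45 (glutathione), -0.75 to -0.019 (thioredoxin), -1.04 to -0.044 (NADPH) and -0.76 to 0.050 (aldo-keto and carbonyl). Single members whose sign changed ran from -0.65 to 0.36 (GSR), -1.46 to 0.023 (GPX4), -0.40 to 0.077 (SRXN1), -0.024 to 0.067 (ME1), -0.91 to 0.095 (AKR1B1), -0.11 to 0.28 (AKR1C1), -0.60 to 0.050 (AKR1C2) and -0.68 to 0.17 (EPHX1).

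Over 6 libraries DESeq2 called 870 genes (535 higher, 335 lower) and 2 members higher (GLRX and GCLC), and gave ME1 -0.018, and RLE factors gave ME1 -6.64e-05. Limma voom with sample quality weights, which gave DMSO 3 a weight of 0.02, called 5592 genes, 8 members higher and 5 lower. Its medians were -0.019 (thioredoxin), -0.047 (NADPH) and 0.062 (aldo-keto and carbonyl), and GPX4 (0.012), SRXN1 (0.075), AKR1B1 (0.089), AKR1C2 (0.062) and EPHX1 (0.17) turned positive. Limma called 112 genes on log2(TPM + 1), 71 on log2(TPM + 0.1) and 64 with no filter. On log2(TPM + 1), with or without the filter, the NADPH median was -0.17 and that of the aldo-keto and carbonyl genes -0.021, with NFE2L2 at 0.21, SRXN1 at 0.15, AKR1B1 at 0.0058, CAT at 0.29 and ALDH3A2 at 0.12. On log2(TPM + 0.1) these were -0.17, -0.021, 0.22, 0.16, 0.0059, 0.29 and 0.12, GSR was 0.073 and the glutathione median 0.44.

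Without DMSO 3, limma called 2869 genes and 4 members lower on log2(TPM + 1), 2845 and 4 on log2(TPM + 0.1), and 2011 and 3 with no filter. In all 3 the NADPH median was -0.023 and AKR1C2 -0.027, and with no filter AKR1B10 was 0.090. Leaving out a CAPE library as well, members lower ran from 4 (without CAPE 2) to 8 (without CAPE 1). Leaving out any further library, DMSO 1 and DMSO 2 included, the medians ran from -0.035 to 0.017 (members), -0.060 to 0.0073 (thioredoxin), -0.049 to -0.032 (NADPH) and -0.15 to 0.21 (aldo-keto and carbonyl). MAFG ran from -0.0034 to 0.031, GPX4 from -0.018 to 0.056, TXN from -0.060 to 0.0073, AKR1B10 from -0.71 to 0.71 and AKR1C2 from -0.13 to 0.25. None of the 16 members called without DMSO 3 changed sign under its 13 alternatives. The cause of these differences was not tested.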
